A study of Zea mays with 9 samples.

Results

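Of the 45260 identifiers of the table, 3 genes of the tubulin family were examined, 2 encoding alpha tubulin chains (Zm00001d021891 and Zm00001d006651) and 1 encoding beta tubulin5 (Zm00001d040509). They were picked by identifier from a list in which the study had grouped genes expressed less after both nitrogen sources, so the RPKM values given below are the values that chose them. For this reason their levels and ratios are a description, and their direction is not independent evidence. The samples were apexes of the primary root, taken from B73 maize seedlings (an inbred line) that were 3 days old when moved to nutrient solution. All groups were first kept for 24 h without nitrogen. They were then grown for 24 h either without nitrogen (-N, the negative control), with 1 mM nitrate given as KNO3 or with 1 mM ammonium given as NH4Cl. Each condition had 3 biological replicates, 9 libraries in all, of 10 to 15 pooled plants according to the record of the series and of 20 according to the methods. The table holds 1 RPKM value (reads per kilobase of transcript, scaled to the size of the library) per gene and condition, estimated by the authors over the 3 replicates. The study itself tested genes across its replicates, and those tests were not used here. The table used here gives no replicate spread to set a difference against, so no error or p-value accompanies any value. The reads behind a value are unknown.

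Alpha and beta tubulin are GTP-binding proteins that join as a dimer, and these dimers polymerise head to tail into the hollow tubes called microtubules. In plant cells microtubules form the cortical arrays that guide the deposition of cellulose in the growing wall, the preprophase band that marks the future division plane, the mitotic spindle and the phragmoplast that builds the new cell plate. The root apex holds the dividing cells of the meristem and the rapidly elongating cells behind it. Tubulins are encoded by small families of very similar genes in plants, and the RefSeq annotation of the later NAM-5.0 assembly of B73 carries alpha or beta tubulin symbols for 14 maize genes, 6 alpha and 8 beta. That annotation pairs 0 of the identifiers of the table with its genes, and the names used here are those given by the study.

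All 3 tubulin genes had their highest level in -N. The alpha tubulin gene Zm00001d021891 was the most abundant of them in every condition, with 642.1 RPKM in -N, 392.2 RPKM after nitrate and 403.7 RPKM after ammonium. In -N this placed it at rank 144 among the 43484 Zm00001d gene models, and at rank 293 after nitrate and 277 after ammonium. Its level was 38.9% lower after nitrate than in -N and 37.1% lower after ammonium, so that the values under the 2 nitrogen sources lay much closer to each other than to -N.

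The other alpha tubulin gene, Zm00001d006651, was listed at 276.4 RPKM in -N, 164.5 RPKM after nitrate and 148.2 RPKM after ammonium. It was the only one of the 3 genes with its lowest value after ammonium, 46.4% below -N against 40.5% below -N after nitrate. Its rank among the gene models went from 456 in -N to 869 after nitrate and 982 after ammonium.

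Beta tubulin5, Zm00001d040509, supplies the partner chain of the dimer. It was listed at 365.4 RPKM in -N, 166.3 RPKM after nitrate and 230.5 RPKM after ammonium, and its ranks were 318, 859 and 564 in the same order. After nitrate its level was 54.5% below -N, the largest difference among the 3 genes, while after ammonium it was 36.9% below. In -N and after ammonium beta tubulin5 stood between both alpha genes. After nitrate it was listed next to Zm00001d006651, and without replicate values the order of these neighbours cannot be resolved.

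**Figure D1:**
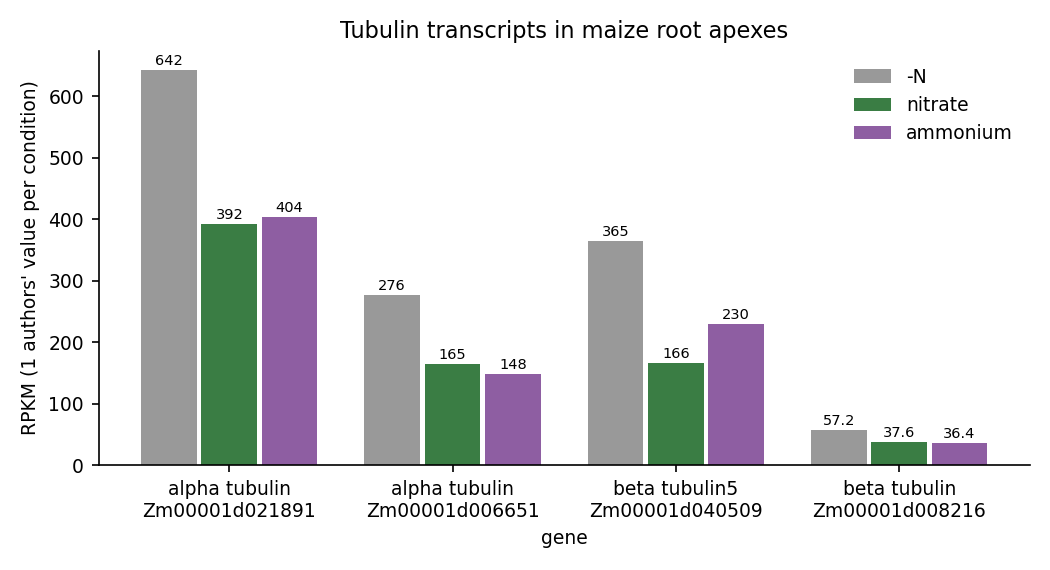
RPKM (vertical axis) of the 3 tubulin genes and of a further beta tubulin gene, Zm00001d008216, in -N, after nitrate and after ammonium; each bar is the single value of the authors for that condition and has no error bar. All 4 genes are highest in -N, and beta tubulin5 is the one in which nitrate (166.3 RPKM) and ammonium (230.5 RPKM) stand farthest apart.

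Expressed as log2 ratios of nitrate to -N, the values were -0.71 for Zm00001d021891, -0.75 for Zm00001d006651 and -1.14 for beta tubulin5. A gene was counted as lower when its log2 ratio lay below -0.58, the fold threshold of the study. The study also required a false discovery rate cutoff, which was not applied here, so these counts are not its calls. All 3 genes were lower after nitrate by this rule. Over the whole table, 5.46% of the 21290 genes listed at 1 RPKM or more in either condition were lower after nitrate, and among the 1713 that reached 100 RPKM, where the tubulins lie, 3.79% were. Since the genes were chosen on this contrast, nothing is read from the difference between these shares. In this abundant class 2.74% of the genes were at least as far below -N as Zm00001d021891, 2.45% as far as Zm00001d006651 and 0.701% as far as beta tubulin5. The quartiles of the log2 ratios of the class were -0.20 and 0.20.

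The ratios of ammonium to -N were -0.67 for Zm00001d021891, -0.90 for Zm00001d006651 and -0.66 for beta tubulin5, so all 3 genes were lower after ammonium by the same rule. The spread of the whole table was wider in this comparison. Here 11.3% of the 21373 genes that reached 1 RPKM were lower, and 14.9% of the 1860 that reached 100 RPKM. Among these abundant genes 9.09% were at least as far below -N as Zm00001d021891 and 9.62% as far as beta tubulin5, whereas 3.39% were as far below as Zm00001d006651. The class had a median of -0.10 and quartiles of -0.42 and 0.35. Both comparisons use the same -N values, so a deviation of -N would move all of these ratios together.

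The direct ratio of ammonium to nitrate does not involve -N. It was 0.04 for Zm00001d021891, -0.15 for Zm00001d006651 and 0.47 for beta tubulin5. None of the 3 lay past the threshold in either direction, against 29.6% of the 21660 genes that reached 1 RPKM. The genes were chosen for lower values after both nitrogen sources, so nothing is read from this count. By their listed values both alpha genes were close to the same level under the 2 nitrogen sources. The sign for Zm00001d021891 turned to -0.027 when the conditions were scaled to the same upper quartile. Beta tubulin5 was 1.39-fold higher after ammonium than after nitrate. This lay inside the range of many genes, since 20.8% of the 1839 genes that reached 100 RPKM were at least as far above their nitrate value.

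**Figure D2:**
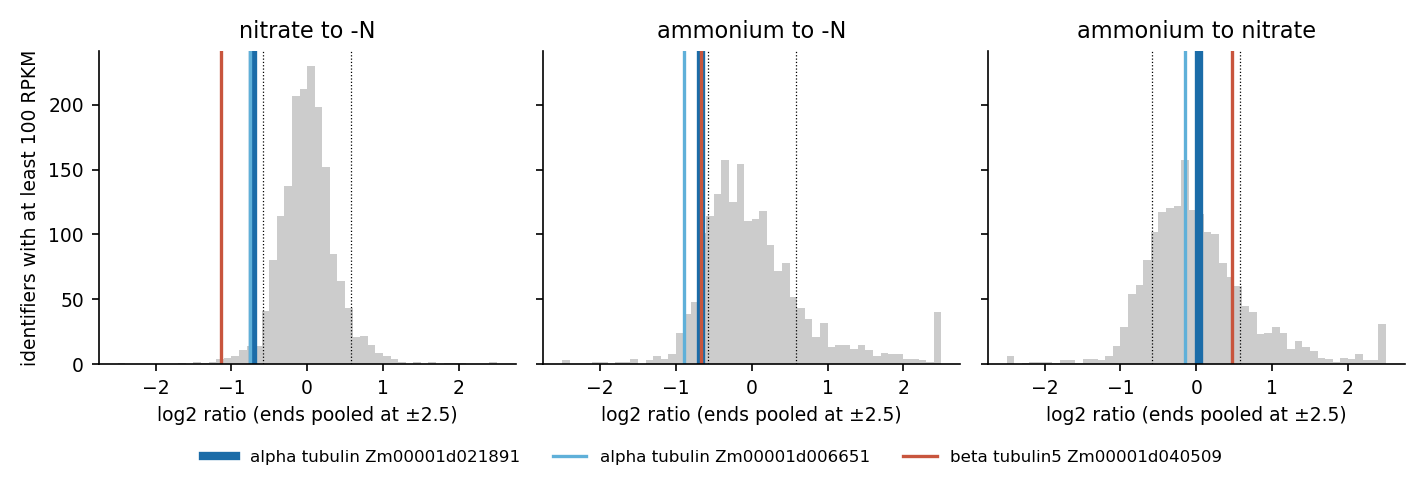
Number of identifiers (vertical axis) by log2 ratio (horizontal axis, with the ends pooled at 2.5) for identifiers that reached 100 RPKM in either condition, with vertical lines for the 3 tubulin genes and dotted lines at the threshold of 0.58. The tubulins lie in the lower tail for nitrate to -N and on the lower flank for ammonium to -N, while for ammonium to nitrate all 3 lie within the threshold.

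RPKM is scaled to length, so levels can be compared and summed across genes. The 3 genes together were listed at 1284 RPKM in -N, 723.0 RPKM after nitrate and 782.5 RPKM after ammonium, a sum that was 43.7% lower after nitrate and 39.1% lower after ammonium. The summed level of both alpha genes was nearly the same under the 2 nitrogen sources, with 556.8 RPKM after nitrate and 552.0 RPKM after ammonium, against 918.4 RPKM in -N. What differed was the share of beta tubulin5 among these 3 genes, which follows from its lower value after nitrate. Other tubulin genes, Zm00001d008216 among them, are left out of this share. It is therefore not the balance of alpha to beta tubulin in the tissue. Beta tubulin5 made up 28.5% of the summed level in -N, 29.5% after ammonium and 23.0% after nitrate, and its level per unit of the summed alpha level was 0.398, 0.418 and 0.299 in the same order. Within the alpha pair, Zm00001d021891 was 2.32 times as abundant as Zm00001d006651 in -N, 2.38 times after nitrate and 2.72 times after ammonium. These ratios between genes do not change with the scaling of a condition.

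The study lists representative genes for selected terms, and 1 more of them is described as tubulin. This is Zm00001d008216, a beta tubulin chain from the same list. Descriptions elsewhere in the supplement of the study were not searched. It was listed at 57.2 RPKM in -N, 37.6 RPKM after nitrate and 36.4 RPKM after ammonium, well below the 3 other genes. Its log2 ratios of -0.61 after nitrate and -0.65 after ammonium were just past the threshold, and the ratio of ammonium to nitrate was -0.04. Between both beta genes, beta tubulin5 was 6.39 times as abundant in -N, 6.33 times after ammonium and 4.42 times after nitrate. All 4 described tubulin genes were lower after nitrate and after ammonium by the fold threshold, with median log2 ratios of -0.73 and -0.67. For all genes that reached 1 RPKM these medians were 0.04 and 0.02, and 5.46% and 11.3% of them were lower. The study chose the list on these libraries, and tubulin genes outside its lists of representative genes were not analysed here.

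Genes of membrane and replication roles that the study lists did not all share the pattern of the tubulins. Dynamin-related protein 1C, Zm00001d033751, belongs to a family of GTPases that in plants act in membrane scission and cell plate formation, and it was listed at 65.8 RPKM in -N, 43.5 RPKM after nitrate and 38.3 RPKM after ammonium (log2 ratios -0.60 and -0.78). The proliferating cell nuclear antigen gene Zm00001d018415, the sliding clamp of DNA replication, was listed at 78.3 RPKM in -N, 72.96 RPKM after nitrate and 39.1 RPKM after ammonium. The Faciata 1-like gene Zm00001d012166, related to a subunit of the chromatin assembly factor that works at replication forks, was listed at 8.13, 6.89 and 3.52 RPKM. In both replication genes the log2 ratio of nitrate to -N lay inside the threshold, at -0.10 and -0.24, where that of every described tubulin gene lay beyond it. These genes too were chosen by the study for their values, so the contrast is a description of the lists.

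The study also lists wall and oxidative genes, which it chose on these same values. This choice fixed the direction against -N of the peroxidases after both nitrogen sources. For the apoplast and polysaccharide binding genes it fixed the direction after nitrate only. After ammonium the log2 ratios of the apoplast genes ran from -0.74 to 0.59. The 12 peroxidases grouped with the tubulins had a median log2 ratio of -1.98 after nitrate and -0.79 after ammonium. By the threshold 12 of them were lower after nitrate and 10 after ammonium, against 5.46% and 11.3% of all genes that reached 1 RPKM. In the ratio of ammonium to nitrate 9 of the 12 peroxidases were higher by the threshold, as were 15.5% of all genes that reached 1 RPKM, and nothing is read from this count either. The 9 apoplast genes that the study lists as higher after nitrate had a median of 0.91 after nitrate and of -0.07 after ammonium. The 2 polysaccharide binding genes of the study came from the same group of genes higher after nitrate and had medians of 0.80 and -0.09. Of all genes that reached 1 RPKM, 11.9% were higher after nitrate by the threshold.

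To find the genes most like each tubulin, the distance between the pairs of log2 ratios (nitrate to -N and ammonium to -N) was taken over the 3759 Zm00001d genes that reached 50 RPKM in any condition and were above 0 in all. With 3 values per gene such likeness is a weak measure and says nothing of a shared role. The gene nearest to Zm00001d021891 was Zm00001d033480, at a distance of 0.02, with 145.3 RPKM in -N, 87.7 RPKM after nitrate and 90.8 RPKM after ammonium. It was followed by Zm00001d034956, Zm00001d051675, Zm00001d044254 and Zm00001d052989, at distances up to 0.10. For Zm00001d006651 the nearest was Zm00001d051589, at 0.06, with 85.4, 51.0 and 47.8 RPKM in the same order, before Zm00001d042534, Zm00001d029903, Zm00001d016274 and Zm00001d048155, at up to 0.11.

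Beta tubulin5 had fewer close neighbours. Zm00001d013644 lay at 0.07, with 325.3 RPKM in -N, 155.2 RPKM after nitrate and 208.2 RPKM after ammonium, and was also similar in level. It was followed by Zm00001d030551, Zm00001d032821, the peroxidase gene Zm00001d040364 and Zm00001d052872, at up to 0.22. The peroxidase was the only one of these 15 neighbours described in the study's lists of representative genes. It had 889.5 RPKM in -N, 424.8 RPKM after nitrate and 498.5 RPKM after ammonium. The tubulins were not each other's nearest genes. Zm00001d008216 came 8th in nearness to Zm00001d021891, at 0.11, and Zm00001d006651 came 28th, at 0.23. Beta tubulin5 came 176th for Zm00001d021891 and 105th for Zm00001d006651, at 0.42 and 0.45. Counted from beta tubulin5, at the same distances, Zm00001d021891 came 28th and Zm00001d006651 came 32nd, and Zm00001d008216 came 45th, at 0.53. A rank thus depends on how many genes lie around the gene it is counted from.

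**Figure D3:**
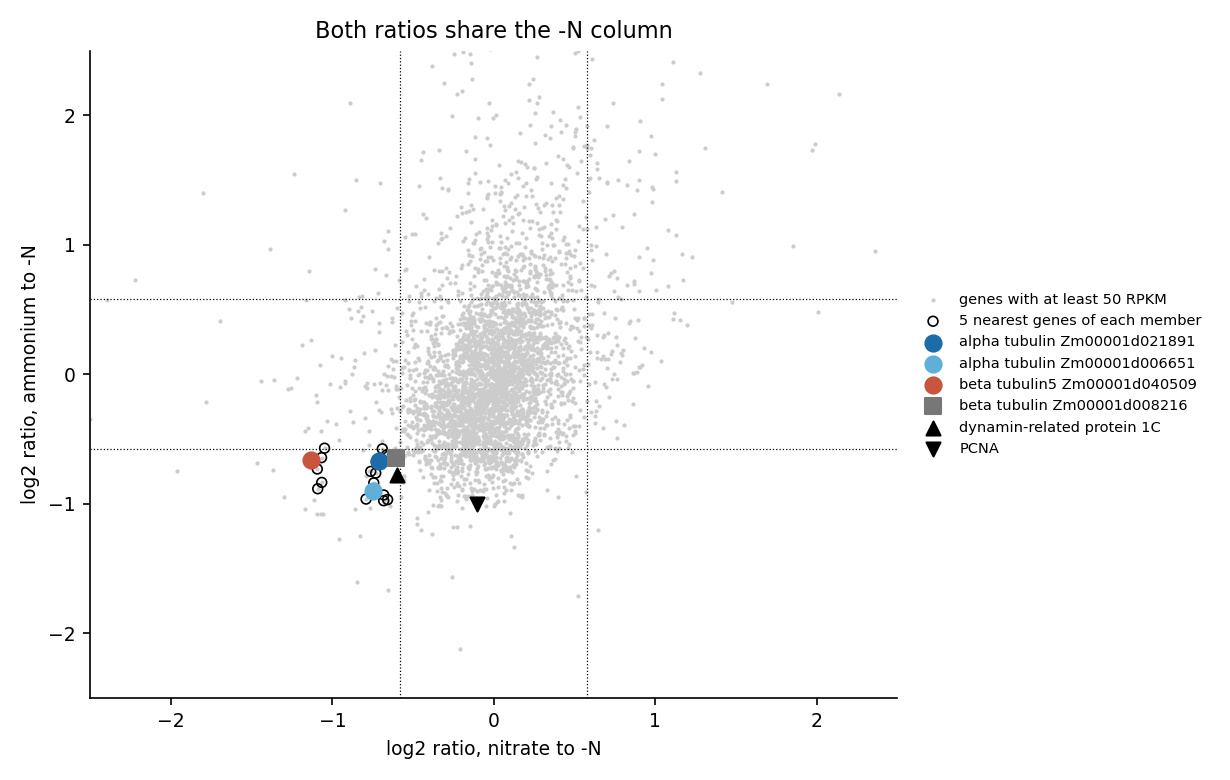
Log2 ratio of nitrate to -N (horizontal axis) against that of ammonium to -N (vertical axis) for the genes that reached 50 RPKM, of which 61 of 3759 lie outside the axes; coloured circles are the 3 tubulin genes, open circles the 5 nearest genes of each, and dotted lines the threshold of 0.58. Both alpha tubulins, Zm00001d008216 and the dynamin-related gene lie together, beta tubulin5 lies apart at -1.14 on the nitrate axis, and the nuclear antigen gene (PCNA) is low on the ammonium axis alone.

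The tissue label could be checked on 1 marker, since the other intended markers could not be paired with identifiers. SOMBRERO, Zm00001d016119, a transcription factor of the root cap known from Arabidopsis, was detected in every condition, at 1.17 RPKM in -N, 4.77 RPKM after nitrate and 2.84 RPKM after ammonium. The study had listed this gene among those higher after both nitrogen sources, so its direction, opposite to that of the tubulins (log2 ratios 2.02 and 1.28), was fixed by the choice. Its detection alone bears on the label, and only weakly. The -N value was close to the minimum of 1 RPKM used here, at rank 19510 of the 43484 gene models. The part of SOMBRERO in the tubulin values was not tested. In RNA from whole apexes, fewer cells rich in tubulin transcripts and less tubulin transcript per cell cannot be told apart.

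Different ways of scaling the table moved the tubulin ratios little. With pseudocounts of 0.1 and 1 RPKM and 4 other scalings of the conditions, the ratio of nitrate to -N ranged from -0.76 to -0.69 for Zm00001d021891, from -0.80 to -0.73 for Zm00001d006651 and from -1.18 to -1.11 for beta tubulin5. The ratios of ammonium to -N ranged from -0.74 to -0.67, from -0.97 to -0.89 and from -0.73 to -0.66 in the same order. Every one of these values stayed beyond the threshold of 0.58. The scalings shifted a condition by only -0.0695 to 0.022 on the log2 scale. That is too little to bring any of these ratios inside the threshold, so this outcome could not have differed. The scalings do not stand in for replicate spread, which is not known here. The correction for reads that fit several places divides reads between similar genes, and how it split reads between near-identical tubulin genes is not known from the table.

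**Figure D4:**
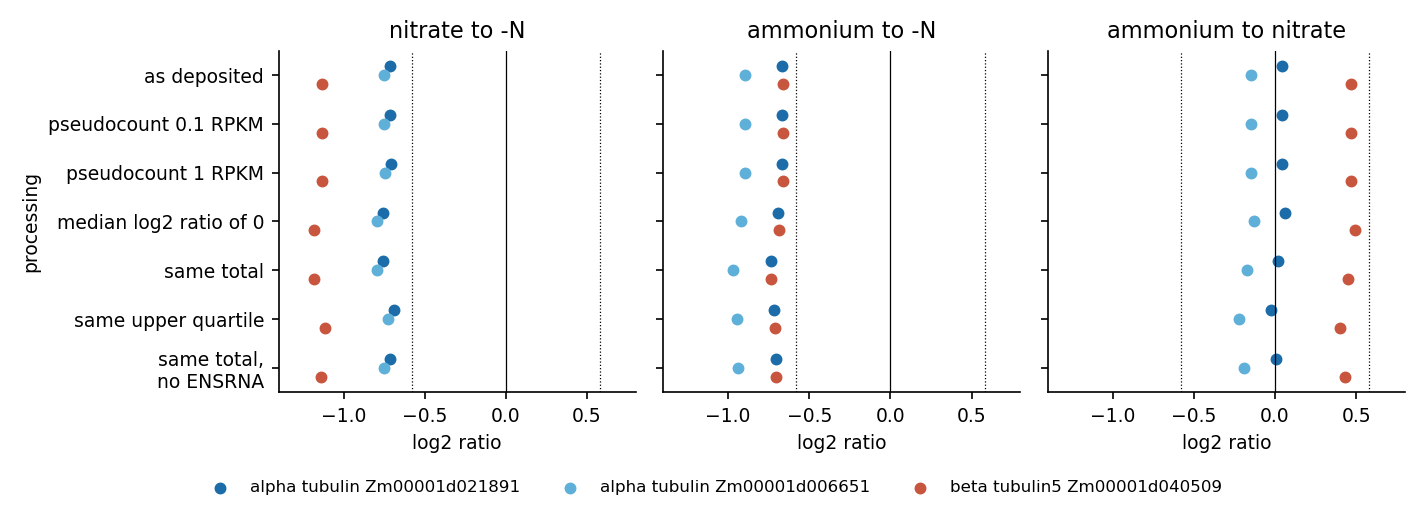
Log2 ratios (horizontal axis) of the 3 tubulin genes as deposited, with 2 pseudocounts and with 4 rescalings of the conditions (vertical axis), with dotted lines at the threshold of 0.58. All points for nitrate to -N and ammonium to -N lie below -0.58, and all points for ammonium to nitrate lie within the threshold.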

How the data were processed

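Polyadenylated RNA of maize root apexes was sequenced from 9 libraries, 3 for each of -N, nitrate and ammonium. According to the methods and processing notes of the study, the authors trimmed reads with Trimmomatic 0.33, mapped them with TopHat2 2.0.13 to B73 RefGen_v4, removed alignments of very low mapping quality and ran Cuffdiff from Cufflinks 2.2.1 with correction for multiply mapped reads and quartile normalization. The deposited values are RPKM, as the authors estimated them, with 1 value per gene and condition. No count, depth or replicate value was used here, so no test, standard deviation or interval was computed.

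From the RPKM, log2 ratios were taken without a pseudocount and counted beyond 0.58, for genes listed at 1 RPKM or more in either condition. Genes listed at 0 in one condition were counted by direction. Named genes were the 3 members, the root cap marker SOMBRERO and the 5 genes of nearest pattern per member. Added to them were the genes described as tubulin, dynamin-related, PCNA or Faciata 1-like in the study's lists of representative genes. Lists of microtubule-associated, actin, cellulose synthesis and cell division genes had been planned by annotation and could not be built. No annotation used here names the identifiers, apart from the lists of the study, which stood in for the planned ones. For the same reason no sequence or coordinate is given. The lists of the study also describe an actin-depolymerizing factor gene, which they group as higher after ammonium. That gene was not analysed here. Members and lists were chosen with earlier results of these data known. Python 3.11.15, numpy 2.4.6, pandas 2.3.3 and matplotlib 3.10.9 were used.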

Additional observations from a re-analysis of the deposited data

How the results depend on the processing

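No paired analysis was possible because the table gives each condition as a single value over its replicates, and for the same reason no replicate could be left out. Of 63 values of the tubulin ratios under alternatives, 57 kept their direction and their side of the threshold. Many of these could not have come out otherwise, so the count is no measure of robustness. The pseudocounts were too small beside the levels of these genes to change a side. The scalings were too small to do so for the ratios to -N. The ammonium to nitrate ratios already lay inside the threshold and could not leave it when it was raised. With a threshold of 1 on the log2 ratio, only beta tubulin5 after nitrate stayed past it, while the nitrate ratios of Zm00001d021891 (-0.71) and Zm00001d006651 (-0.75) and the ammonium ratios of Zm00001d021891 (-0.67), Zm00001d006651 (-0.90) and beta tubulin5 (-0.66) did not, by construction. Scaling to the same upper quartile turned the ammonium to nitrate ratio of Zm00001d021891 from 0.04 to -0.027. The summed levels of the 3 genes and of the 4 described tubulin genes kept direction and side when scaled to the same total, and the sum of both alpha genes was not rescaled.

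The number of all genes past the threshold depended on the settings. For nitrate to -N it was 3695, with 1657 at a threshold of 1, 11020 without a minimum RPKM, 1812 with a minimum of 5 RPKM and 158 with 100 RPKM. For ammonium to -N it was 6599, with 2720, 13966, 4366 and 580 in the same order, and for ammonium to nitrate 6410, with 2625, 13669, 4106 and 611. When genes down to 10 RPKM were admitted, 2 of the 5 nearest genes remained for each of Zm00001d021891, Zm00001d006651 and beta tubulin5, so the named neighbours depend on this minimum.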
